A study of Mus musculus with 24 samples.

Results

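The keratins of the embryonic urogenital sinus (UGS) are described here across every pair of RNA pools in the series. The 10 keratins were chosen by name, as every probe whose gene name in the scanner files was Krt4, Krt5, Krt7, Krt8, Krt13, Krt14, Krt15, Krt17, Krt18 or Krt19 or its older symbol, such as Krt2-5 for Krt5. They were 13 of the 41174 probes on the array and 10 of the 24717 genes tested. Krt7, Krt8 and Krt13 had 2 probes each, and the brighter one stands for the gene below unless both are named. All 13 probes were well above background in both channels on 24 of 24 arrays, and none was saturated.

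The UGS is the endodermal tube with its surrounding mesenchyme from which the prostate buds in males, and the study compared UGS RNA with and without androgen. All embryos were C57BL/6J, and each pool held RNA from several embryos. In the first 2 comparisons, pregnant females received 50 mg/kg dihydrotestosterone (DHT, a potent natural androgen) or vehicle at 16.0 days post conception (dpc), and the UGS of female embryos was taken after 6 h (4 pairs of pools) or 12 h (3 pairs). In the third, untreated male embryos were set against their female littermates at 17.5 dpc (5 pairs), a point that the labels call 48 h. The accessory ducts were dissected away and sex was read from the gonads. Each pair was hybridised directly on 2 arrays with exchanged dyes, 24 arrays in all. All log2 ratios are DHT over vehicle or male over female.

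Keratins are the intermediate filament proteins of epithelia, and each filament pairs a type I with a type II chain. Krt5 with Krt14 is the pair of basal cells, where Krt15 and Krt17 are further type I chains. Krt8 with Krt18 is the pair of simple and luminal epithelium, usually joined by Krt7 and Krt19. Krt4 with Krt13 is the pair of the upper layers of moist stratified epithelium. The epithelium of the UGS and of early prostatic buds is known to hold cells that carry basal and luminal keratins at once, before the adult layers separate.

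The type I genes lie on chromosome 11, where Krt13, Krt15 and Krt19 follow one another among the keratin genes in the RefSeq annotation and Krt14 and Krt17 lie further along the same cluster. The type II genes lie on chromosome 15, and the type I gene Krt18 sits there as the direct neighbour of Krt8. RefSeq promoters, 250 bases before to 50 after the annotated start (build GRCm38.p6), were matched for 6 of the 10 keratins. Those of Krt7 and Krt13, which were higher in males, and of Krt8 and Krt18, the luminal pair, are shown 5′ to 3′ on the strand of the gene. The Krt7 promoter lies at chr15:101412153-101412452 on the plus strand, that of Krt13 at chr11:100121517-100121816 on the minus strand, that of Krt8 at chr15:102004293-102004592 on the minus strand and that of Krt18 at chr15:102027966-102028265 on the plus strand. Capitals mark every match to 5 short motifs, searched on both strands. The TATA box was searched as TATAAA and the GC box of Sp1-type factors as GGGCGG. The AP-1 site was searched as TGANTCA. A single arm of the steroid hormone response element was searched as AGAACA, and the CCAAT box by its name.
Krt7: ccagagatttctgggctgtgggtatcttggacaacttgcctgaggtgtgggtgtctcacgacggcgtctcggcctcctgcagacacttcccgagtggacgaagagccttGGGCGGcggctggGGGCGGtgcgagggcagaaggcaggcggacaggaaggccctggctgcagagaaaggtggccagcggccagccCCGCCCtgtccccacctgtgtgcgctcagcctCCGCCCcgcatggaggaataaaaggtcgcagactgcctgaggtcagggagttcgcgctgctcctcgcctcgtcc
Krt13: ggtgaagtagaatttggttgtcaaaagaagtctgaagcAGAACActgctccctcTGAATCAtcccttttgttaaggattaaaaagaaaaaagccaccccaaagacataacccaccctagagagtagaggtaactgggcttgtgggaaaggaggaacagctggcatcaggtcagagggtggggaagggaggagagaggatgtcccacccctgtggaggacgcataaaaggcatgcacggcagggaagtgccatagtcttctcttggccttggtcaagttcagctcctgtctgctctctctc
Krt8: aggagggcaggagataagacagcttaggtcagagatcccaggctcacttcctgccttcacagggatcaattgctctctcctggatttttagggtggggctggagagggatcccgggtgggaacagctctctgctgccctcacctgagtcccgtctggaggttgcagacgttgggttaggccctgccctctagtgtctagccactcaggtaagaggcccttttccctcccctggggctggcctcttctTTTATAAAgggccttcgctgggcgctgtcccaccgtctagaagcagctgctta
Krt18: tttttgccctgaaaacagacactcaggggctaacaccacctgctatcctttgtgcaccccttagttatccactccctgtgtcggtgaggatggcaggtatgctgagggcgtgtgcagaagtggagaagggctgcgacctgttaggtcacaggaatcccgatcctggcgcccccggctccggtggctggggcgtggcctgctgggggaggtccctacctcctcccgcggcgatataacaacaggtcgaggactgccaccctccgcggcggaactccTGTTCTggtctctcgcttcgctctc

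Krt7 held 4 matches to GGGCGG, a motif that 35.7% of the 32851 promoters in the table carry. Krt13 held AGAACA and TGANTCA, found in 19% and 7.81% of promoters. The second Krt13 start in the table, at chr11:100120528-100120827, held TGANTCA at 2 places and CCAAT once. Krt8 held TATAAA on both strands in overlapping letters that begin at −3 and −1 from the annotated start, against 13.6% of promoters with the motif at any position. Krt18 held AGAACA once, on the opposite strand. The promoters of Krt5 and Krt14, the basal pair, held none of the 5 motifs. CCAAT is in 37.4% of promoters.

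Several pools stood apart in ways that touch the keratins. The 6 h vehicle pools of replicates 2, 3 and 4 carried Y-linked RNA although they are labelled female: the level of Eif2s3y in them was 8.66, 7.64 and 7.81, against 6.02 in replicate 1, 5.92 to 6.16 in the 12 h vehicle pools and 8.51 to 9.01 in the male pools. The DHT pool of replicate 3 at 12 h stood apart in skin markers, with a mean log2 ratio of 1.58 over 7 genes against 0 and 0.03 in the other 12 h pairs; their mean level reached 9.63 there and lay between 7.75 and 8.05 in the 12 h vehicle pools. Within that list Krt10 (3.38) and Lor (3.35), of the upper layers of skin, and Dmkn (2.32) were far higher there, while Krt1 (0.01) and Krt2 (0.06) were not. Skeletal muscle markers, 10 of 10 above background on every array, reached 0.73 in that pair and 1.41 in replicate 3 of the male-female pairs. Intestine markers, 2 of 7 above background on every array, reached 0.64 in replicate 2 at 6 h. Tff3 (2.1), Lgals4 (2.04) and Vil1 (0.56) stood high there, while Cdx1, Cdx2, Cdh17 and Muc2 lay between −0.22 and 0.07. Over the probes kept, the 2 arrays of a pair correlated at r = 0.351 to 0.741 in the male-female pairs, but at −0.512 to −0.078 at 6 h and −0.216 to 0.09 at 12 h. Of the 10 keratins, 6 to 10 had the same sign on both arrays of a pair at 6 h, 5 to 10 at 12 h and 5 to 10 between the sexes. The plot of marker lists shows these shifts pair by pair. Pools were taken as the replicates, and the labels do not say how many litters they came from.

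**Figure D1:**
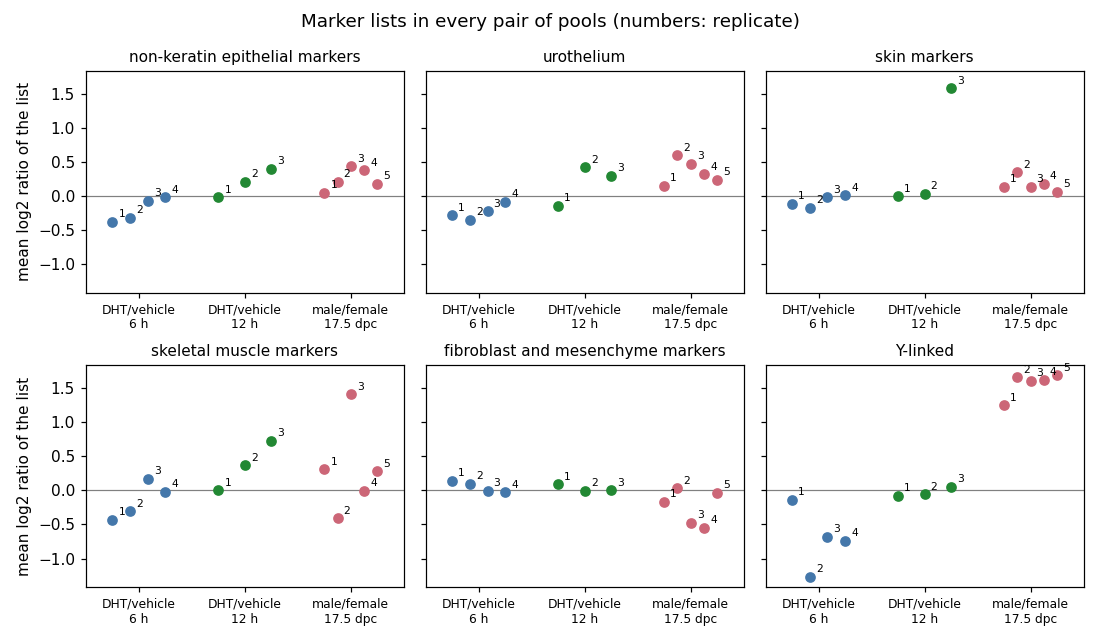
Mean log2 ratio (y axis) of 6 marker lists in every pair of pools, grouped by comparison on the x axis, with the replicate number beside each point. Skin markers stand at 1.58 in replicate 3 at 12 h, Y-linked genes lie between −1.27 and −0.68 in replicates 2 to 4 at 6 h, and skeletal muscle markers reach 1.41 in replicate 3 of the male-female pairs.

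Between the sexes at 17.5 dpc, 4 keratins were higher in males and 1 was lower. Krt7 (0.64, SE 0.10), Krt15 (0.55, SE 0.13), Krt13 (0.48, SE 0.12) and Krt19 (0.45, SE 0.11) rose, which is 1.55-, 1.46-, 1.4- and 1.36-fold. Krt17, a basal keratin that also marks stressed and activated epithelium, fell by 0.72 (SE 0.13), 1.65-fold lower in males. All 12 pairs of the 3 comparisons went into 1 limma fit, so SE and p also rest on the 6 h and 12 h spread. The moderated test of the 5 male-female pairs was adjusted by Benjamini-Hochberg over all genes, with 0.05 as the threshold. Over all genes 7.58% passed it, 3.72% as higher and 3.86% as lower, and the 5 of 10 keratins are read against that share. All 5 pairs lay on 1 side of 0 for 6 of 10 keratins, against 15.8% of genes. The median log2 ratio was 0.33 over the keratins and 0.001 over all genes. In whole tissue, fewer cells of a type and less RNA per cell cannot be told apart.

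Of the simple keratins, Krt7 had a level (log2 intensity, normalised between arrays) of 12.14, 12.05, 11.91, 12.13 and 11.93 in the female pools of replicates 1 to 5. Their male partners stood at 12.50, 12.83, 12.77, 12.74 and 12.50. The pair ratios were 0.36, 0.79, 0.86, 0.61 and 0.57, so every male pool was above every female pool (adjusted p = 0.00116). The dimmer Krt7 probe gave 0.12, 0.84, 0.92, 0.71 and 0.55 and passed too (adjusted over all probes, p = 0.0027). Krt19, which has no tail domain and is shared by basal and luminal cells of many ducts, was at 11.55, 11.46, 11.36, 11.47 and 11.27 in females. In males it was at 11.63, 12.13, 11.91, 12.00 and 11.69, with ratios of 0.08, 0.67, 0.55, 0.52 and 0.42 (adjusted p = 0.0234). The male and female levels of Krt19 did not overlap, although replicate 1 differed little. Levels that did not overlap between the sexes were found for 3 of 10 keratins, Krt7, Krt17 and Krt19, and for 3.26% of all genes.

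Krt8 and Krt18, the luminal pair, did not pass (0.30, adjusted p = 0.34, and 0.17, adjusted p = 0.56). Krt8 gave ratios of −0.24, 1.19, 0.09, 0.31 and 0.18, its other probe −0.22, 1.06, 0.13, 0.30 and 0.11, and Krt18 −0.24, 0.88, 0.06, 0.24 and −0.07. Both genes thus stood high in replicate 2 and low in replicate 1. The male pool of replicate 2 had Krt8 at 13.57 where the other male pools lay between 12.49 and 12.88. Without replicate 2 the Krt18 ratio was 0. In that pair urothelium markers stood at 0.60, the highest of the 5 pairs, and skeletal muscle markers at −0.41, the lowest, and their part in the result was not tested.

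Of the pair of moist stratified epithelium, Krt13 was at 8.94, 9.47, 9.17, 9.67 and 8.90 in females and 9.11, 9.84, 9.90, 10.35 and 9.36 in males. Its ratios were 0.18, 0.37, 0.74, 0.68 and 0.46, above 0 in 5 of 5 pairs, although the pools of the 2 sexes overlapped (adjusted p = 0.0211). The other Krt13 probe gave 0.31, 0.50, 0.94, 0.73 and 0.49 (adjusted over all probes, p = 0.0116). Its partner Krt4 gave 0.10, −0.20, 0.72, 0.59 and 0.53 and did not pass (0.35, adjusted p = 0.205). Replicate 2, where Krt13 was higher in the male and Krt4 lower, is where the 2 chains parted most.

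The basal keratins went 3 ways. Krt15, known for progenitor-like basal cells, was at 13.52, 13.83, 13.70, 14.17 and 13.67 in females and 13.98, 14.12, 14.54, 14.67 and 14.32 in males. Its ratios of 0.47, 0.29, 0.84, 0.51 and 0.65 were above 0 in every pair (adjusted p = 0.0186). Krt5 gave 0.07, −0.36, 0.14, 0.08 and 0.11, and its partner Krt14 gave 0.16, 0.06, 0.52, 0.31 and 0.22. Neither passed (0.01, adjusted p = 0.99, and 0.25, adjusted p = 0.207), although Krt14 was above 0 in 5 of 5 pairs. Krt17 was at 10.83, 10.75, 10.83, 11.15 and 10.91 in females and 10.23, 9.85, 10.00, 10.62 and 10.14 in males. Every male pool was below every female pool, and the ratios were −0.60, −0.89, −0.83, −0.52 and −0.78 (adjusted p = 0.00278). Replicate 1 of Krt17 rests on 1 array, since the software marked the spot on the other as an outlier. In each of the 5 pairs Krt17 was the lowest of the 10 keratins, and it was 1.03 to 1.66 below Krt15. Markers of the ducts that were dissected away were also lower in males, with a mean ratio over 8 genes of −0.41, −0.26, −0.30, −0.13 and −0.33. Of these 3 passed as lower, Amhr2 (−1.08, adjusted p = 4.13e-05), Wnt7a (−0.77, adjusted p = 1.07e-06) and Wt1 (−0.34, adjusted p = 0.0267), and the mean level of the list was 7.15 to 7.30 in male and 7.29 to 7.71 in female pools. Smooth muscle markers (4 of 10, Myh11 −0.47) and immune markers (2 of 8, Lyz2 −0.53) had genes past the threshold as lower too. The part of these tissues in the Krt17 ratio was not tested.

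The calls of Krt7 and Krt17 held in all 28 alternative settings, while those of Krt13, Krt15 and Krt19 were near the threshold. Without replicate 3 their adjusted p were 0.0686, 0.0616 and 0.063, and without replicate 4 they were 0.0982, 0.0578 and 0.0898. Krt19 also missed without replicate 2 (0.0888), and Krt15 and Krt19 without replicate 5 (0.0569 and 0.0537). The count of keratins past the threshold was then 4 without replicate 2, 2 without replicate 3, 2 without replicate 4 and 3 without replicate 5, against 5. With the arrays centred on their median in place of loess, Krt13, Krt15 and Krt19 missed (0.0826, 0.0898 and 0.155) and Krt5 turned to −0.07.

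**Figure D2:**
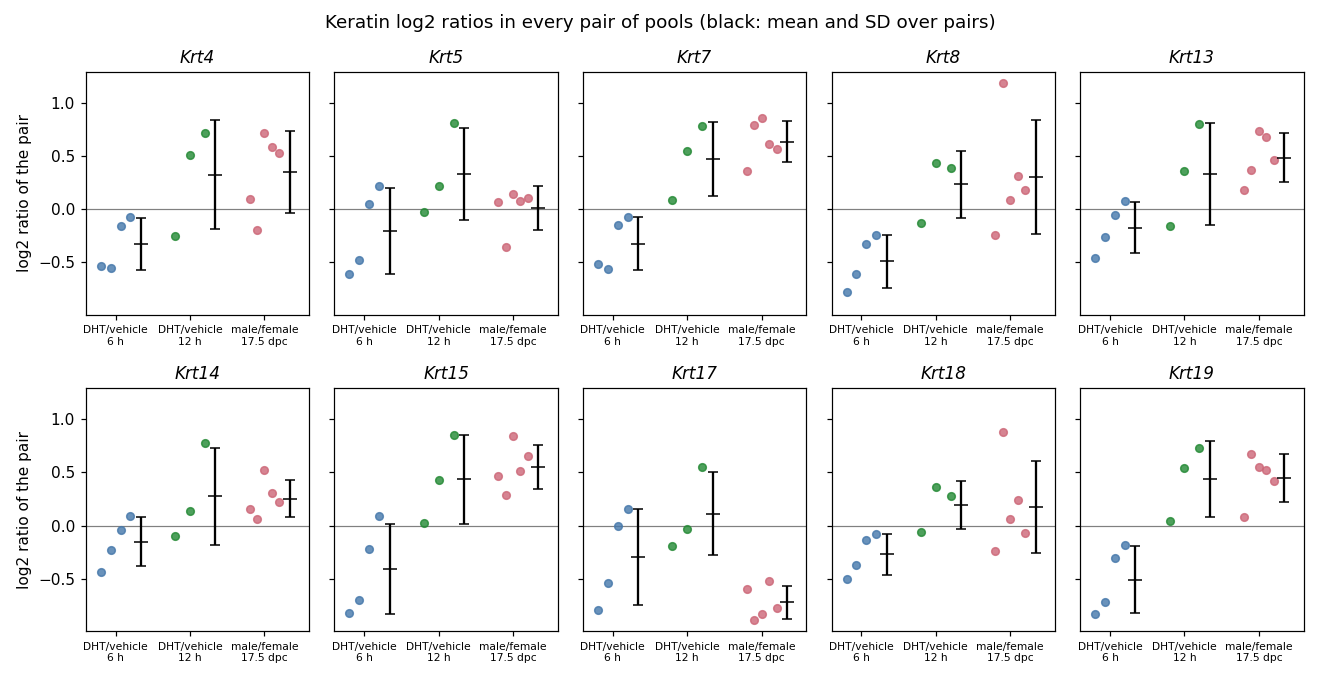
Log2 ratio (y axis) of the 10 keratins in every pair of pools, by comparison on the x axis; points are pairs in the order of their replicate numbers, and black bars give the mean and SD over pairs. Krt7 lies at 0.36 to 0.86 and Krt17 at −0.89 to −0.52 in the 5 male-female pairs, and all 10 keratins were below 0 in replicate 1 at 6 h.

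After 6 h of DHT all 10 keratins had a mean ratio below 0, with a median of −0.31 against 0.007 over all genes, and 0 of 10 passed the threshold in limma. Over all genes 1.63% passed at 6 h. At an unadjusted p under 0.05 there were 4 of 10 keratins, Krt7, Krt8, Krt15 and Krt19, against 14.3% of genes. The pairs differed widely: the mean over the keratins was −0.63, −0.50, −0.13 and 0 in replicates 1 to 4. Replicate 1, whose vehicle pool had Eif2s3y at the level of the female pools, had the lowest mean, with all 10 keratins between −0.83 and −0.44. All 4 pairs were below 0 for 5 of the 10 keratins, against 11.8% of all genes, while 24.6% had all pairs on 1 side of 0.

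Among the simple keratins Krt19 came nearest the threshold. The vehicle pools of replicates 1 to 4 had it at 10.30, 10.23, 9.87 and 9.85 and the DHT pools at 9.47, 9.51, 9.56 and 9.67. The ratios were −0.83, −0.72, −0.31 and −0.18, a mean of −0.51 (SE 0.12, adjusted p = 0.0591). The DHT pools were all below the vehicle pools, with an SD of 0.09 against 0.23. Krt8 gave −0.78, −0.61, −0.33 and −0.24 (mean −0.49, adjusted p = 0.19), and Krt18 gave −0.50, −0.37, −0.14 and −0.08 (mean −0.27, adjusted p = 0.419). The second Krt8 probe gave −0.61, −0.47, −0.11 and −0.12. Krt7 gave −0.52, −0.56, −0.15 and −0.07 (mean −0.33, adjusted p = 0.166), and its dimmer probe −0.40, −0.43, −0.20 and −0.12. For these 4 genes, and for Krt4, the DHT and vehicle levels did not overlap, which is 5 of 10 keratins and 8.05% of all genes.

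Krt4 gave −0.53, −0.55, −0.16 and −0.07 (mean −0.33, adjusted p = 0.388). Its partner Krt13 gave −0.46, −0.26, −0.05 and 0.08 (mean −0.17, adjusted p = 0.661), and the second Krt13 probe −0.57, −0.30, −0.16 and 0.12. Krt13 was thus lower in 3 of 4 DHT pools and Krt4 in 4 of 4. The basal keratins crossed 0 as well. Krt15 gave −0.82, −0.70, −0.22 and 0.09 (mean −0.41, adjusted p = 0.184) and Krt17 gave −0.80, −0.54, 0 and 0.16 (mean −0.29, adjusted p = 0.379). Krt5 gave −0.61, −0.48, 0.05 and 0.22 (mean −0.21, adjusted p = 0.617) and Krt14 −0.44, −0.23, −0.04 and 0.09 (mean −0.15, adjusted p = 0.67). For each of these 4 genes replicates 1 and 2 were low and replicate 4 was above 0.

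With replicate 1 alone at 6 h, the pair without raised Y-linked RNA, the ratios were its own, from −0.83 for Krt19 to −0.44 for Krt14, and 0 of 10 keratins passed with the spread taken from the other comparisons. Krt19 passed at 6 h when a pair of another comparison was left out, replicate 1 at 12 h (adjusted p = 0.0464) or replicate 1 of the male-female pairs (0.0439). At 6 h the mean of immune markers was 0.39, 0.28, 0.12 and 0.10 over replicates 1 to 4, highest in replicates 1 and 2, where the keratin mean was lowest, and the mean of 28 non-keratin epithelial markers was −0.38, −0.32, −0.07 and −0.02. Their part in the keratin ratios was not tested apart from the fits relative to the epithelial markers given below.

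After 12 h of DHT all 10 keratins had a mean ratio above 0, with a median of 0.33 against 0.002 over all genes, and again 0 of 10 passed in limma, where 0.287% of all genes did. At an unadjusted p under 0.05 there were 4 of 10, Krt7, Krt13, Krt15 and Krt19, against 14.1% of genes. The keratin mean was −0.08, 0.35 and 0.67 in replicates 1 to 3. All 3 pairs were above 0 for 3 keratins, Krt7, Krt15 and Krt19, against 16.8% of all genes, while 35.5% had all pairs on 1 side. The pair with the highest keratins is the one with the high skin markers, and the part of skin in these values was not tested. In that pair Krt5 (0.81) and Krt14 (0.78), which skin is known to express, and the simple keratins Krt7 (0.78) and Krt19 (0.73) were alike in ratio. The other simple keratins, Krt8 (0.39) and Krt18 (0.28), were the lowest of the 10 keratins there. Without replicate 3 the keratin median was 0.14, and the mean of Krt14 went from 0.27 to 0.02 and that of Krt5 from 0.34 to 0.10.

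Krt7 at 12 h was at 11.29, 11.26 and 11.18 in the vehicle pools and 11.38, 11.81 and 11.96 in the DHT pools of replicates 1 to 3. Its ratios were 0.09, 0.55 and 0.78 (mean 0.47, SE 0.13, adjusted p = 0.122), above 0 in 3 of 3 pairs, and 0.32 without replicate 3. The dimmer Krt7 probe gave −0.07, 0.52 and 0.62. Krt19 gave 0.04, 0.54 and 0.73 (mean 0.44, adjusted p = 0.184), and 0.29 without replicate 3. For Krt7 and Krt19 the DHT and vehicle levels did not overlap, which is 2 of 10 keratins and 8.36% of all genes. Krt8 gave −0.13, 0.44 and 0.39 (mean 0.24, adjusted p = 0.671), its other probe −0.07, 0.43 and 0.37, and Krt18 −0.06, 0.36 and 0.28 (mean 0.19, adjusted p = 0.658). In these 2 genes replicates 2 and 3 were alike and replicate 1 was below 0.

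Krt13 at 12 h gave −0.16, 0.36 and 0.80 (mean 0.33, adjusted p = 0.341), its second probe −0.13, 0.40 and 0.90, and Krt4 −0.25, 0.51 and 0.72 (mean 0.33, adjusted p = 0.47). Krt15 gave 0.02, 0.43 and 0.85 (mean 0.43, adjusted p = 0.262), Krt5 −0.03, 0.22 and 0.81 (mean 0.34, adjusted p = 0.39) and Krt14 −0.10, 0.14 and 0.78 (mean 0.27, adjusted p = 0.397). Krt17 gave −0.19, −0.03 and 0.55 (mean 0.11, adjusted p = 0.843). Replicate 3 carried the largest ratio of all 6 of these genes. Krt17 stood above 0 in that pair alone, and its mean without it was −0.11.

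The change of direction from 6 h to 12 h was tested as the difference between the 2 ratios. It was above 0 for 10 of 10 keratins, with a median of 0.60, but 0 of 10 passed, as did 0.113% of all genes. At an unadjusted p under 0.05 there were 9 of 10, Krt17 being the exception, against 14.4% of genes. The largest differences were those of Krt19 (0.95, SE 0.19, adjusted p = 0.0725) and Krt15 (0.84, SE 0.22, adjusted p = 0.117), with Krt7 at 0.80 (SE 0.17, adjusted p = 0.0763).

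The male-female ratio was higher than the 6 h ratio in 4 keratins, Krt7 (0.96, SE 0.15, adjusted p = 0.00191), Krt19 (0.96, SE 0.17, adjusted p = 0.00405), Krt15 (0.96, SE 0.19, adjusted p = 0.0102) and Krt13 (0.66, SE 0.18, adjusted p = 0.0399). Of all genes 6.91% passed in that contrast, 3.51% as higher. With replicate 1 alone at 6 h, 0 of 10 keratins passed, with a median difference of 0.91. Against the 12 h ratio the male-female ratio gave 0 of 10 keratins, where 1.65% of genes passed, and 1 of 10 at an unadjusted p under 0.05, against 15.5% of genes. That 1 was Krt17, whose difference of −0.83 (SE 0.21, adjusted p = 0.0679) was the lowest; the other 9 lay between −0.33 and 0.16. Without replicate 1 at 6 h, 1 keratin passed as lower in this contrast.

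**Figure D3:**
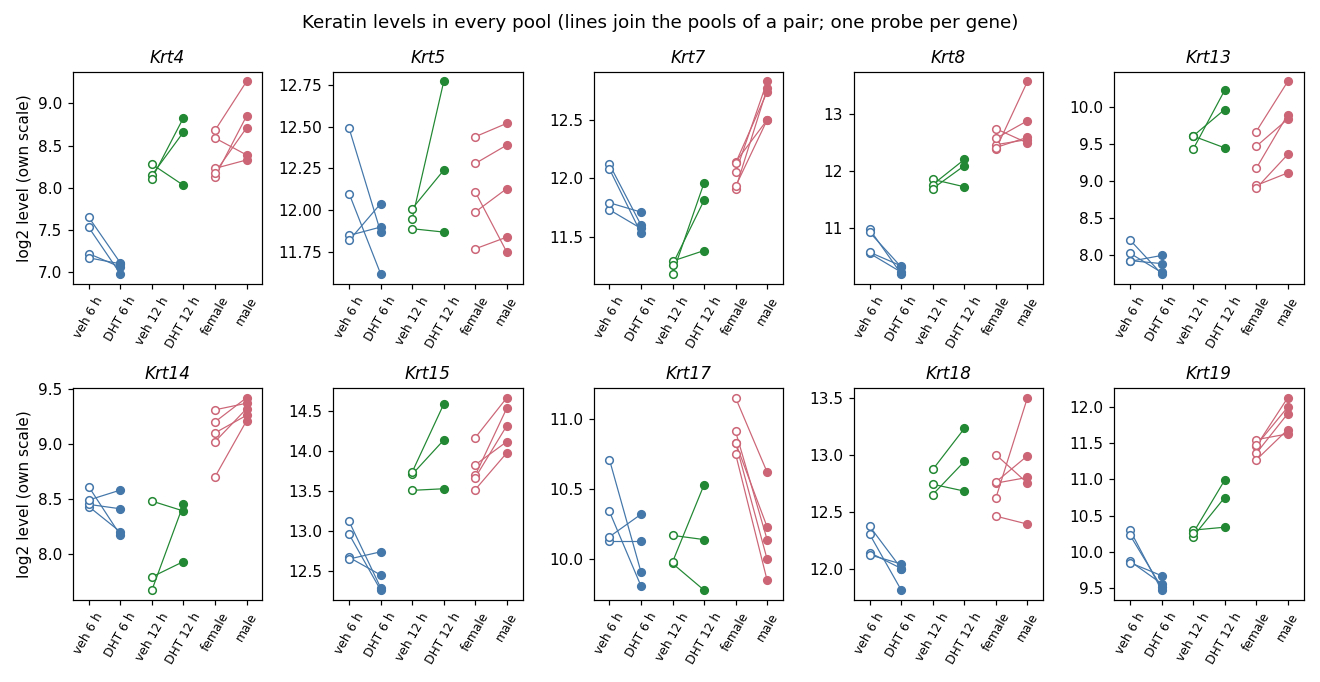
Log2 level (y axis, a scale of its own for each gene) of the 10 keratins in every pool, with open circles for vehicle or female pools, filled circles for DHT or male pools and lines joining the pools of a pair. Male pools of Krt17 lie at 9.85 to 10.62 below female pools at 10.75 to 11.15. On the probe shown, the 6 h pools of Krt8 lie at 10.19 to 10.97, below all other pools of the gene. The second Krt8 probe is not shown.

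Across the 6 sets of pools Krt4, Krt8, Krt13, Krt15, Krt18 and Krt19 had their 2 lowest medians in the 6 h sets. Krt8 ran from a median of 10.27 (DHT, 6 h) and 10.75 (vehicle, 6 h) through 11.76 (vehicle, 12 h) and 12.09 (DHT, 12 h) to 12.46 (female) and 12.59 (male). Neighbours in that order overlapped at 12 h and between the sexes. The second Krt8 probe had its medians in the same order. Its vehicle pools at 6 h (11.02 to 11.42) overlapped those at 12 h (11.4 to 11.55). Krt19 ran in the same order, from a median of 9.54 and 10.05 through 10.26 and 10.75 to 11.46 and 11.91, and the vehicle pools at 6 h and 12 h overlapped. Krt5 kept medians between 11.89 and 12.24 in all 6 sets, and its ranges overlapped throughout. Krt17 was highest in the female pools (median 10.83) and between 9.98 and 10.25 in the other 5 sets. The comparisons were hybridised as separate sets of arrays, so time and array set cannot be told apart. The 2 Krt7 probes show the limit: from vehicle at 6 h to vehicle at 12 h the brighter went from a median of 11.94 to 11.26 and the dimmer from 7.69 to 8.15.

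The keratin ratios followed the other epithelial genes from pair to pair. The 28 non-keratin epithelial markers, such as Cdh1 and Cldn4 of cell junctions, had a median of −0.19 at 6 h, 0.23 at 12 h and 0.24 between the sexes. Of these markers 1 passed as lower at 6 h (Cxadr, −0.44, adjusted p = 0.00924), 0 passed at 12 h, and 11 passed as higher and 1 as lower between the sexes, with Cldn4 at 0.64 and Cdh1 at 0.54. The keratin mean and the marker mean were −0.63 and −0.38 in replicate 1 at 6 h, −0.50 and −0.32 in replicate 2, 0.35 and 0.21 in replicate 2 at 12 h, and 0.67 and 0.40 in replicate 3. The keratin mean was the farther from 0 in these 4 pairs, and the nearer in replicates 1, 3 and 4 of the male-female pairs. Between the sexes fibroblast and mesenchyme markers were lower, with 4 of 12 past the threshold (Col1a1, −0.67), and their mean was −0.48 and −0.55 in replicates 3 and 4, where the epithelial markers were highest at 0.44 and 0.38.

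**Figure D4:**
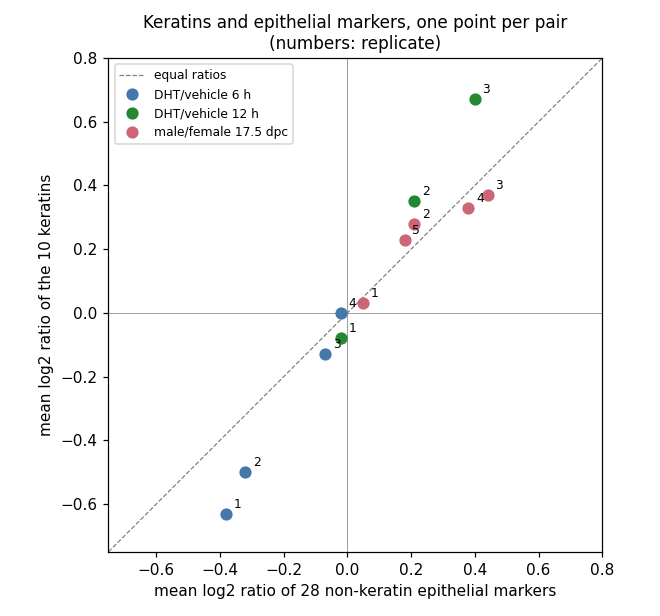
Mean log2 ratio of the 10 keratins (y axis) against that of 28 non-keratin epithelial markers (x axis), with 1 point per pair of pools, the replicate number beside it, and a dashed line for equal ratios. The points run from replicate 1 at 6 h (−0.38 and −0.63) to replicate 3 at 12 h (0.40 and 0.67).

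Keratins were therefore also set against the epithelial markers of the same pair. Relative to the marker mean, Krt17 was lower in males by a log2 difference of −0.98 (SE 0.10, adjusted p = 4.37e-08), and −0.65, −1.11, −1.27, −0.90 and −0.96 in the 5 pairs. Krt7 (0.38, adjusted p = 0.00277), Krt15 (0.30, adjusted p = 0.017), Krt13 (0.23, adjusted p = 0.0251) and Krt19 (0.20, adjusted p = 0.0451) were higher than the markers, and Krt5 was lower (−0.24, adjusted p = 0.0299). Subtracting the marker mean moves the median of all genes to −0.25, and 79.2% of genes passed in this fit, so these p are comparisons with the epithelial markers and not with other genes. With the marker mean as a covariate, 3% of genes passed between the sexes, and the keratins past the threshold were Krt7 (0.31, adjusted p = 0.0341) and Krt17 (−1.06, adjusted p = 0.000768). Krt13, Krt15 and Krt19 did not pass there (0.07, 0.14 and 0.08). The markers were dimmer than the keratins, with mean levels in the female pools of 7.95 to 8.11 against 11.1 to 11.4. The part of level in these differences was not tested. At 6 h and at 12 h 0 of 10 keratins passed in either fit, in which 0.121% and 0.0607% of genes passed at 6 h and 0% at 12 h in both.

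**Figure D5:**
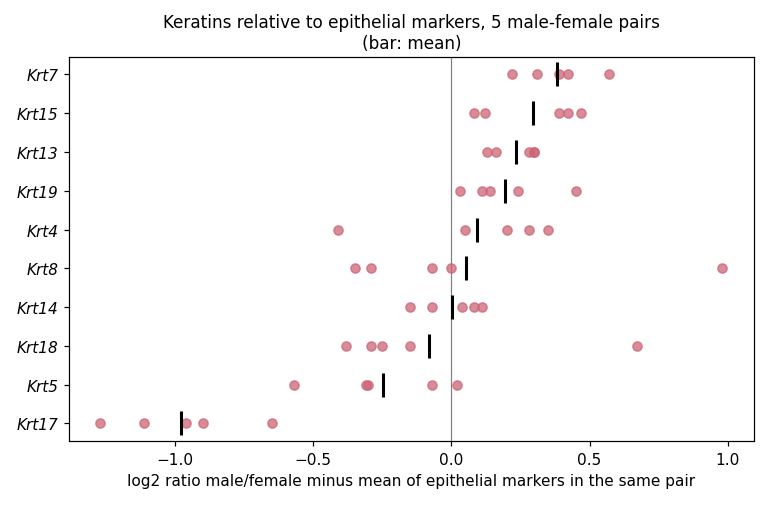
Log2 ratio of male over female minus the mean of the epithelial markers in the same pair (x axis) for each keratin (y axis, ordered by mean); points are the 5 pairs and bars their mean. Krt17 lies at −1.27 to −0.65 in the 5 pairs and Krt7 at 0.22 to 0.57, while Krt8 spans −0.35 to 0.98.

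Differences between the ratios of 2 keratins were set out pair by pair, with no test of partners against other chains. Krt8 minus Krt18 lay between −0.28 and 0.31 in the 12 pairs, including replicate 2 of the male-female pairs, where both were high. Krt5 minus Krt14 lay between −0.42 and 0.13, and Krt4 minus Krt13 between −0.57 and 0.15. Among chains that are not the usual partners, Krt7 minus Krt19 lay between 0.01 and 0.31, above 0 in every pair, Krt8 minus Krt19 between −0.46 and 0.52, and Krt5 minus Krt15 between −0.69 and 0.26. Krt14 minus Krt17, both type I basal chains, went from −0.07 to 0.36 at 6 h to 0.76 to 1.34 between the sexes. Over the 12 pairs, which share array sets and tissue makeup, each keratin other than Krt17 correlated with the mean of the other 9 at r = 0.691 to 0.955, highest for Krt19, and Krt17 at 0.176.

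The 10 genes outside the keratin family with the ratios most like the keratin mean were Pkp3, Evpl, Ppl, Prom2, Spint1, Fam83h, S100a14, Ripk4, Sdc1 and Zfp410, with Pearson r over the 12 pairs from 0.988 for Pkp3 down to 0.954. Pkp3 encodes a desmosomal plakophilin, and Evpl and Ppl encode envoplakin and periplakin of the cornified envelope and desmosome. Pkp3 gave −0.51, −0.44, −0.13 and 0.04 at 6 h, 0, 0.32 and 0.69 at 12 h, and 0.23, 0.36, 0.43, 0.37 and 0.25 between the sexes. Prom2 and Spint1 are also members of the epithelial marker list.

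Of the other epithelial keratins, 14 of 18 were measured, and 2 passed between the sexes, both as higher. Krt23, a type I keratin of simple and glandular epithelia, gave 1.05, 0.70, 1.75, 1.42 and 1.00 (mean 1.18, SE 0.16, adjusted p = 0.000311), a larger ratio than any of the 10 keratins. At 12 h Krt23 gave 0.14, 0.46 and 1.25 (adjusted p = 0.184). Krt78 gave 0.22, 0.55, 0.76, 0.46 and 0.40 (mean 0.48, adjusted p = 0.00497). Of 16 measured hair and root sheath keratins, out of 23, 1 passed between the sexes, near the 7.58% of all genes. It was Krt75, a keratin of the companion layer of the hair follicle, lower in males with −0.15, −0.45, −0.76, −0.44 and −0.47 (mean −0.45, adjusted p = 0.00877). Neither list had a gene past the threshold at 6 h or 12 h. Krt6a, a type II partner of Krt17 in activated epithelium that was picked out after its values were seen, gave −0.77, 0.69, −0.30, −0.67 and −0.74 (mean −0.36, adjusted p = 0.307). Krt16, which lies beside Krt17 in the cluster and was named for that position, gave a mean of −0.05 (adjusted p = 0.814).

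As lists, junction and anchoring genes of the keratin network had medians nearer 0 than the 10 keratins in all 3 comparisons. Of 11 measured desmosome genes, Pkp3 was higher (0.33, adjusted p = 0.0365) and Pkp4 lower (−0.23, adjusted p = 0.0114) in males. Of 12 hemidesmosome and plakin genes 3 were higher, among them Itgb4 (0.28) and Itga3 (0.12), which encode integrin chains. Of 13 genes of basal and stratified fate 2 were higher, Tfap2c (0.28, adjusted p = 0.02) and Cdh3 (0.26, adjusted p = 0.000608), and Trp63, the master factor of basal cells, did not pass (0.15, adjusted p = 0.675). The medians of the 3 lists were 0.01, 0.13 and 0.04. Mean levels of these lists in the female pools lay between 7.96 and 8.56, against 11.1 to 11.4 for the keratins. The part of level in the smaller medians was not tested. At 6 h and 12 h, 0 genes of these lists passed, with medians of −0.05, −0.04 and −0.08 at 6 h and 0.11, 0.15 and 0.11 at 12 h. Single genes moved more than the medians. At 12 h Perp (0.64), Pkp1 (0.56) and Col17a1 (0.55) were above the highest mean ratio of the 10 keratins, 0.47 for Krt7. In replicate 3, the pair with the high skin markers, these genes stood at 1.4, 1.26 and 1.11. In replicates 1 and 2 Perp gave 0.09 and 0.44, Pkp1 0.16 and 0.25, and Col17a1 0.18 and 0.35. The part of skin in these ratios was not tested.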

How the data were processed

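RNA pools of mouse UGS were measured on 24 two-colour Agilent arrays, read per the file headers with Agilent Feature Extraction 7.5.1. The deposited scanner files hold the intensity of each spot in both channels and a log10 ratio of Cy5 over Cy3, and the deposited series matrix holds log2 ratios whose centring is not given in the sources used here; the last 2 served as alternatives. Per the file headers the 24 arrays hold 43790 spots each, and their median Cy3 intensity was 102.3 to 151.1, while the number of pairs limits the precision.

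The mean signal of a spot was corrected by its median local background (limma 3.58.1 under R 4.3.3; method normexp with 50 as the offset), normalised by loess within each array, and turned to DHT over vehicle or male over female. Outlier spots were left out, and dye-swapped arrays were averaged into 12 pairs. Probes had to be well above background in a channel on at least 6 of 24 arrays (35477 of 41174), and the brightest probe stood for a gene. Levels are the 2 channels after loess and quantile scaling of the mean intensity. Limma fitted 12 pairs with 1 coefficient per comparison; tests were two-sided and adjusted over 24717 genes. The keratins, the gene lists and the alternatives were chosen with earlier results of these data known. All 10 keratins are named, and of each list the genes with the largest ratios past the threshold or, if none passed, the largest ratios. Some genes of these lists are not reported here. P-values measure the spread between pools.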

Additional observations from a re-analysis of the deposited data

Results flagged for a closer look

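Of 60 groups of 4 or 5 values (ratio and both levels of each keratin at 6 h and between the sexes), 1 held a value far from the others by Dixon's test, and chance alone flags about 1 in 20 such groups. The male-female ratio of Krt5 in replicate 2 was −0.36, where the other 4 pairs lay between 0.07 and 0.14. In the same pair Krt4 was at −0.20 and Krt8 and Krt18 were at 1.19 and 0.88, and the cause was not tested.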

How the results depend on the processing

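Of 840 keratin ratios under 28 alternative settings, 785 kept their direction and side of the threshold. The count of keratins past it at 6 h, 0, was 1 with the series matrix and 2 with only unswapped or only dye-swapped arrays. At 12 h the count, 0, was 1 with only dye-swapped arrays. With arrays of 1 dye order, dye effects do not cancel. The share of all genes past the threshold in these settings is not given here, so these counts are not read as results about keratins. The male-female count, 5, was 2 with median centring, 3 with the scanner log ratio and 2 with the epithelial covariate. For 12 h minus 6 h, 0, it was 3 relative to the epithelial markers, a fit in which 58.2% of all genes passed, and 3 with only dye-swapped arrays. For male-female minus 6 h, 4, it was 0 with 6 h replicate 1 only and 0 with the covariate, and for male-female minus 12 h, 0, it was 1 in these and 1 relative to the markers. Leaving out 1 pair gave 0 to 1 at 6 h, 0 to 0 at 12 h, 2 to 5 between the sexes, and 0 to 0, 3 to 5 and 0 to 1 for the 3 differences in that order.

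Replicate numbers are shared by the comparisons, but same-numbered pairs correlated at −0.069 to 0.286 and not all above 0.1, so they only name pools. With a replicate block the counts were 1 at 6 h, 0 at 12 h, 6 between the sexes, and 4, 7 and 1 for the differences. Since the share of all genes past the threshold in that fit is not given here, these counts are not read as results about keratins. Fitting each comparison alone gives no value for the differences.

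Direction turned in 25 ratios. Krt5 between the sexes, 0.01, was −0.07 with median centring, −0.01 with the series matrix, −0.37 with the covariate, −0.24 relative to the markers and −0.09 with only unswapped arrays, and ran from −0.03 to 0.10 leaving out a pair. Krt18 between the sexes was −0.04 with the covariate, −0.08 relative to the markers and 0 to 0.28 leaving out a pair. Krt17 at 12 h was −0.15 with the covariate, −0.09 relative to the markers and −0.11 to 0.26 leaving out a pair. With the covariate Krt4, Krt5, Krt13 and Krt14 at 6 h were 0.02, 0.08, 0.15 and 0.11, Krt4 at 12 h −0.02, and Krt4 and Krt14 between the sexes −0.10 and −0.09. Relative to the markers Krt13 and Krt14 at 6 h were 0.02 and 0.04, and Krt18 at 12 h 0. The relative values subtract the marker mean by construction, while the covariate removes what follows that mean with a slope fitted for each gene. The cause of the other changes was not tested.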

Other observations

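Of 17 other intermediate filament genes, for vimentin, desmin, neurofilaments, lamins and their partners, 0 passed at 6 h or 12 h and 1 between the sexes, where 7.58% of all genes passed. It was the nuclear lamin gene Lmna, which fell by 0.18 in males (adjusted p = 0.018 in limma). Vim, of mesenchymal filaments, gave −0.10 (adjusted p = 0.364). Nefm, a neurofilament gene picked out after its values were seen, varied widely, from −1.22 in replicate 3 of the male-female pairs to 0.99 in replicate 1 at 6 h. Of 11 measured genes of cornification, Ivl passed at 12 h (0.41, adjusted p = 0.0498), with 0.17, 0.46 and 0.62 in the 3 pairs, of which the last is the pair with the high skin markers. Between the sexes Sprr1a was higher (0.40, adjusted p = 0.0442). Lor, the major protein of the cornified envelope, was above 0 in 5 of 5 male-female pairs (0.73, 0.59, 1.23, 1.09 and 0.96) and did not pass (adjusted p = 0.146). Its SD over these 5 pairs was 0.26, but its SE in the shared fit was 0.34. That fit also takes its spread from the 12 h pairs, where the SD of Lor was 1.86 and its highest ratio 3.35.

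Of 8 urothelium genes 3 were higher in males, Psca (1.02, adjusted p = 1e-06), Gata3 (0.62, adjusted p = 4.82e-06) and Upk2 (0.41, adjusted p = 0.0335). At 6 h Gata3 was lower (−0.49, adjusted p = 0.00228), and at 12 h 0 of the 8 passed. Of 10 measured genes of prostate luminal and neuroendocrine cells 5 were higher in males, with the largest ratio for Sox9 (0.79, adjusted p = 1.36e-05), and 1 was lower.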
